A study of Mus musculus with 6 samples.

Results

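EphB receptors and ephrin-B ligands form a family of 8 mouse genes, the receptors Ephb1, Ephb2, Ephb3, Ephb4 and Ephb6 and the ligands Efnb1, Efnb2 and Efnb3. They were taken by gene symbol from a table of read counts for 56805 genes, and all 8 were found. The table holds 6 libraries of rRNA-depleted total RNA from spinal motor neurons, 3 from the cervical and 3 from the thoracic cord. All came from embryos of control genotype at e12.5 with no treatment. The sources used here do not give how the motor neurons were isolated or how many embryos a library holds, and p-values cover only the spread among these 6 samples, which may be technical in part. By its title, the series asks how Hox5 activity makes motor neurons diverse.

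EphB receptors are receptor tyrosine kinases that bind membrane-anchored ephrin-B ligands on neighbouring cells. The receptor signals into its own cell, and the ligand, whose cytoplasmic tail ends in a PDZ-binding motif, signals into the cell that carries it. Contact often repels a growing axon. In mouse and chick, limb-level motor neurons of the medial division of the lateral motor column use EphB1 to avoid ephrin-B2 in the dorsal limb, and ephrin-B3 at the midline of the cord keeps certain axons from crossing. Outside neurons, ephrin-B2 marks arteries and EphB4 marks veins.

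The start regions of 7 of the 8 genes are in RefSeq's table of promoters (GRCm38.p6), and those of Ephb2, the most abundant receptor per length, and Efnb2, the ligand with the highest read count, are shown because these transcripts make up most of the reads of their class. Each run is the 250 bases before the start of the gene on its own strand, chr4:136836013-136836262 (minus strand) for Ephb2 and chr8:8661243-8661492 (minus strand) for Efnb2. Capitals mark matches on either strand to GGGCGG (the GC box) or CCAAT (the CCAAT box) or TATAAA (the TATA box), which did not overlap each other here.
Ephb2: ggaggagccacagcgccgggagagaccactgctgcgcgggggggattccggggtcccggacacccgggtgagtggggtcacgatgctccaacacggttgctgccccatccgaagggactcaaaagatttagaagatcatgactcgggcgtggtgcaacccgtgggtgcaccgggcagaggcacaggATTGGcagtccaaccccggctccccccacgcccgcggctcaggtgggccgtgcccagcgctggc
Efnb2: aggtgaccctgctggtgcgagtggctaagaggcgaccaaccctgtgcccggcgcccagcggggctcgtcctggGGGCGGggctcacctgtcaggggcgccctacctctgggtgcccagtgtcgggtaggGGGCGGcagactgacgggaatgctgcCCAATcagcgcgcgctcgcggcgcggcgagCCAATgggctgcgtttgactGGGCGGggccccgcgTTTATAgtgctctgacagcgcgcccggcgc
The Ephb2 run held 20 CpG dinucleotides and 1 match, to CCAAT. The Efnb2 run held 27 CpG and 6 matches, 3 to GGGCGG, 2 to CCAAT and 1 to TATAAA that begins 30 bases before the start. Across 32851 promoter runs of the same length, the median was 6 CpG, and GGGCGG was in 32.7%, CCAAT in 33.8% and TATAAA in 12.4%. Of the 7 family runs, 4, 5 and 1 held these motifs. The homeodomain letters TAATTA were in 4.84% of all runs and TGATNNAT in 7.68%, and neither was in the 7 family runs. These matches describe letters in the window and not bound sites.

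Between cervical and thoracic libraries, the fitted levels of the 8 genes differed by at most 0.22 on the log2 scale. None of the 8 was called by the quasi-likelihood test of edgeR at a Benjamini-Hochberg adjusted p below 0.05 over all 21972 genes tested, where 0.542% of genes were (119 genes, of which 42 were higher in cervical libraries and 77 lower). DESeq2 and limma-voom also called 0 of the 8, and none had an unadjusted p below 0.05 by any of these 3 tools, where 8.47% of all genes did in edgeR. All 8 passed the filter on low counts. The log2 fold change, cervical over thoracic, lay above 0 for 3 members and below 0 for 5, with a median of -0.026 against 0.0083 over all genes tested. The median size of the log2 fold change was 0.066 over the members, 0.128 over all genes tested, and 0.072 over the 10220 genes whose mean level, in counts scaled to library size (CPM, TMM-scaled), lay within the members' range of 8.5 to 439. With the replicate number as a block, 1.97% of genes were called (432 genes), and again none of the 8. Leaving out cervical replicate 1 raised the count of called genes over the whole table to 159. Leaving out another library lowered it, to 41 (cervical replicate 2), 9 (cervical replicate 3), 94 (thoracic replicate 1), 37 (thoracic replicate 2) and 45 (thoracic replicate 3). No member was called in any of these fits.

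Per length, the receptor genes spanned mean levels from 7.46 TPM (Ephb4; TPM is the length-scaled share of all transcripts) to 142 TPM (Ephb2) and differed far less between the regions. Ephb2, a receptor of commissural and motor axons, lies on chromosome 4 from 136374850 to 136563299 (mm39, minus strand). It stood at 429, 463 and 434 CPM in cervical replicates 1, 2 and 3, against 430.5, 458 and 422 CPM in thoracic replicates 1, 2 and 3. In each region replicate 2 was the highest, and the regions overlapped. The means were 442 ± 18.4 CPM in the cervical and 437 ± 18.96 CPM in the thoracic libraries (SD, n = 3 each). The log2 fold change was 0.017 (SE 0.061, 95% interval -0.12 to 0.15, edgeR adjusted p = 0.98), so the interval runs from 1.08-fold lower to 1.11-fold higher in cervical libraries. This gene had the deepest counts of the family, 13656 to 23066 reads per library, and the narrowest interval.

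Ephb1, the receptor of medial lateral motor column axons, lies on chromosome 9 from 101799327 to 102231892 (mm39, minus strand). It stood at 116, 133 and 118 CPM in cervical replicates 1, 2 and 3, against 103, 141 and 124 CPM in thoracic replicates 1, 2 and 3. The cervical values lay inside the range of the thoracic ones. Means were 122 ± 9.16 CPM in the cervical and 122.6 ± 19.2 CPM in the thoracic libraries (SD, n = 3 each), with a log2 fold change of -0.0039 (SE 0.102, 95% interval -0.23 to 0.22, edgeR adjusted p = 0.998). Beside this level stand 14 genes of the lateral motor column, with a median log2 fold change of -0.067. The quasi-likelihood test called 1 higher and 1 lower in cervical libraries (DESeq2 called 4 and limma-voom 2), and with the replicate block 3 were called higher and 3 lower. Lhx1, a marker of the lateral division, rose to 357 ± 26.1 CPM in the cervical libraries, against 261 ± 16.9 CPM in the thoracic ones (edgeR adjusted p = 0.0256), and Met, the receptor of hepatocyte growth factor, fell to 32.7 ± 2.42 CPM, against 58.7 ± 12.9 CPM (edgeR adjusted p = 0.0249). The other 4 genes called with the block were Aldh1a2, Runx1, Isl1 and Ret. The regions overlapped for all 4, and Isl1 and Ret are also on the list of motor neuron genes. Aldh1a2, which encodes an enzyme of retinoic acid synthesis, had levels of 132, 12.6 and 50.4 CPM in cervical replicates 1, 2 and 3, against 23.0, 4.36 and 7.78 CPM in thoracic replicates 1, 2 and 3, so the regions overlapped although the cervical library was the higher in each pair (log2 fold change 2.44, edgeR adjusted p = 0.279, and 1.66e-05 with the block). The log2 fold change of Runx1, a transcription factor of some motor pools, was 1.39 (edgeR adjusted p = 0.343, and 0.0109 with the block), and that of Ret, a receptor of GDNF signals, was -0.64 (edgeR adjusted p = 0.505, and 0.00498 with the block). Isl1, found in the medial division and other motor columns, stood at 49.5 ± 11.9 CPM in the cervical and 75.8 ± 12.2 CPM in the thoracic libraries (edgeR adjusted p = 0.181, and 0.00105 with the replicate block). The libraries are bulk RNA, in which fewer cells of a type and less RNA per cell cannot be told apart. Lhx1 is also made by spinal interneurons, and the summed level of 21 interneuron genes was 1488 to 1613 CPM in the cervical libraries, against 1372 to 1420 CPM in the thoracic ones, with no overlap. Most of these genes went the other way than the sum, with 8 log2 fold changes above 0, 13 below and a median of -0.147. Of these genes edgeR called 2 higher and 3 lower in cervical libraries (DESeq2 called 7 and limma-voom 6), and with the block 2 were called higher and 4 lower. Pax2, a gene of inhibitory interneurons, rose to 544 ± 25.5 CPM, against 433 ± 14.9 CPM in thoracic libraries (edgeR adjusted p = 0.0462), and Slc6a5, the glycine transporter gene, rose to 257 ± 16.8 CPM, against 189 ± 19.1 CPM (edgeR adjusted p = 0.0417). Gata3, Sim1 and Lmx1b, transcription factors of other interneuron classes, fell, with log2 fold changes of -0.85, -2.25 and -1.08 (edgeR adjusted p = 0.0249, 0.0192 and 0.0143). Foxd3, taken as a Schwann cell and neural crest gene and also made by interneurons, rose to 231 ± 5.58 CPM, against 178 ± 8.22 CPM (edgeR adjusted p = 0.0207). The part of interneurons in the level of Lhx1 was not tested.

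Of the Ephb1 exons, 174 bases are shared on the opposite strand with ENSMUSG00000120943, whose mean was 178 counts against 4358 for Ephb1. The strand setting of the counting is not given, so these reads could not be told apart with certainty.

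Ephb3, a receptor that often acts together with EphB2, lies on chromosome 16 from 21023505 to 21042055 (mm39, plus strand). It stood at 62.2, 70.5 and 65.4 CPM in cervical replicates 1, 2 and 3, against 60.1, 70.3 and 51.1 CPM in thoracic replicates 1, 2 and 3. The cervical library was the higher in all 3 same-numbered pairs, by log2 ratios of 0.051, 0.0029 and 0.36, so the third pair held the larger part of the difference. With a log2 fold change of 0.13 (SE 0.106, 95% interval -0.11 to 0.36, edgeR adjusted p = 0.848), it had the largest positive difference of the family, and the regions overlapped.

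Ephb6, a receptor whose kinase domain is inactive, lies on chromosome 6 from 41582416 to 41597443 (mm39, plus strand). It stood at 45.4, 57.7 and 49.2 CPM in cervical replicates 1, 2 and 3, against 52.1, 55.8 and 49.4 CPM in thoracic replicates 1, 2 and 3. The highest and the lowest values both came from cervical libraries. The log2 fold change was -0.047 (SE 0.095, 95% interval -0.26 to 0.16, edgeR adjusted p = 0.957).

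Ephb4, the receptor of venous endothelium, lies on chromosome 5 from 137348371 to 137376931 (mm39, plus strand) and was the scarcest member. It stood at 7.04, 8.42 and 8.04 CPM in cervical replicates 1, 2 and 3, against 8.75, 10.9 and 7.84 CPM in thoracic replicates 1, 2 and 3. Thoracic replicate 2 was the highest, and the regions overlapped. The log2 fold change was -0.22 (SE 0.157, 95% interval -0.57 to 0.12, edgeR adjusted p = 0.809), the largest in size and the least precise of the family, at 227 to 469 reads per library. Its interval allows a level up to 1.49-fold lower in cervical libraries, while the bounds of the other 7 intervals reach at most 1.28-fold in either direction. Its exons share 33 bases with Zan on the opposite strand, which had a mean of 16.2 counts.

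**Figure D1:**
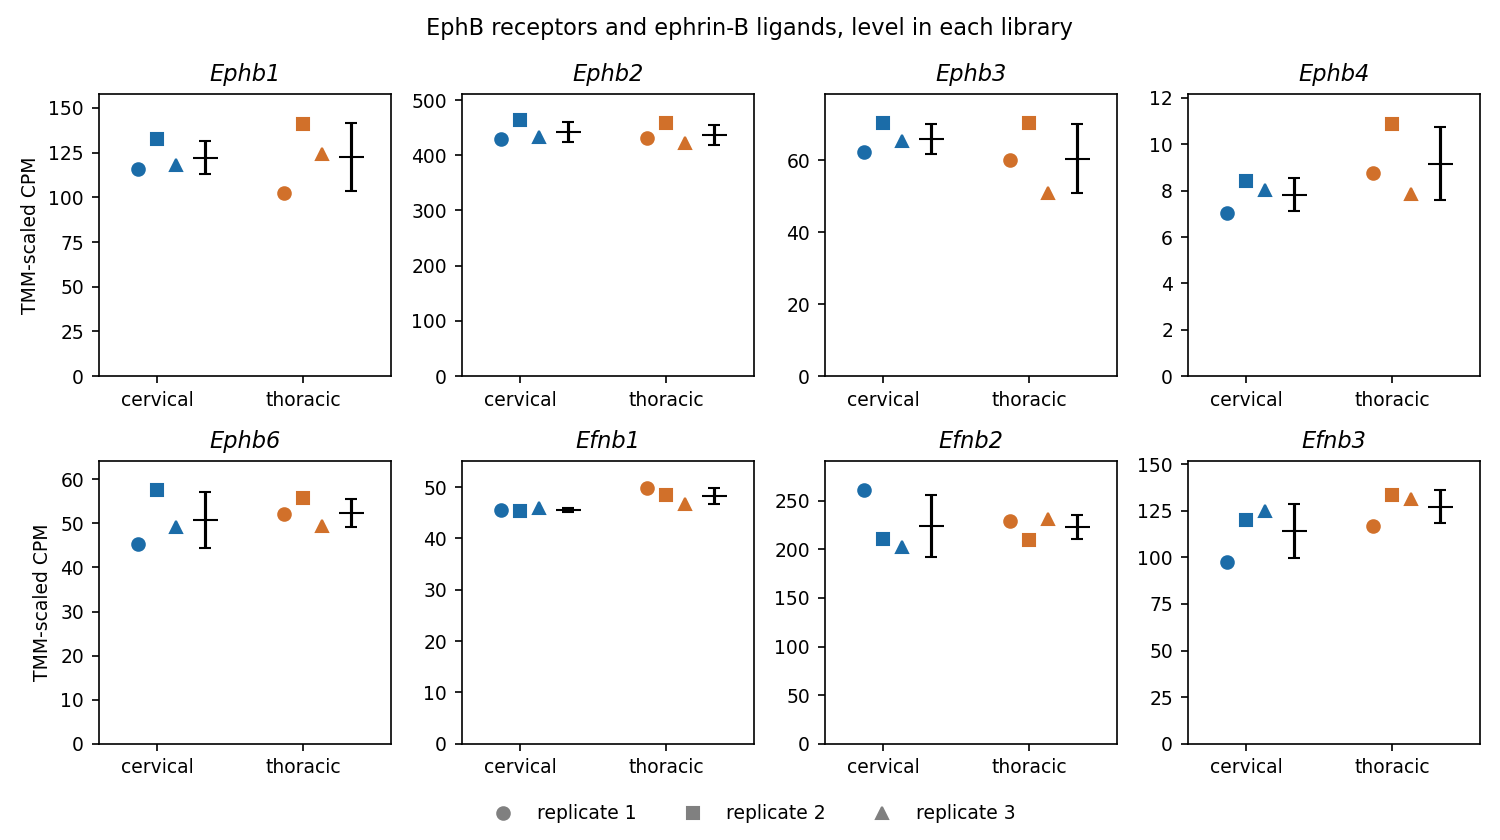
TMM-scaled CPM (y axes, each from 0) of the 5 receptor and 3 ligand genes in cervical (left, blue) and thoracic (right, orange) libraries, with 1 symbol per replicate number and the mean ± SD of 3 libraries in black. The ranges of the regions overlap for 7 genes and are apart for Efnb1, whose cervical values of 45.3 to 46 CPM lie below the thoracic ones of 46.7 to 49.8 CPM.

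Among the ligands, Efnb3 and Efnb1 were lower in cervical libraries in every same-numbered pair without passing the test. Efnb3, the midline ligand, lies on chromosome 11 from 69444918 to 69451031 (mm39, minus strand). It stood at 97.6, 119.9 and 125 CPM in cervical replicates 1, 2 and 3, against 117, 133 and 131 CPM in thoracic replicates 1, 2 and 3. Cervical replicate 1 was the lowest library, and cervical replicates 2 and 3 lay above thoracic replicate 1. Means were 114 ± 14.6 CPM in the cervical and 127 ± 8.86 CPM in the thoracic libraries (SD, n = 3 each). The log2 fold change was -0.15 (SE 0.091, 95% interval -0.35 to 0.047, edgeR adjusted p = 0.751), with the smallest p of the family. With the replicate block it was -0.16 (SE 0.063, 95% interval -0.297 to -0.024, edgeR adjusted p = 0.339). It was the only one of the 8 with an unadjusted p below 0.05 in that fit, where 10.7% of all genes had one. The log2 ratios within pairs were -0.26, -0.15 and -0.068.

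Genes of the floor plate, a midline tissue that makes ephrin-B3 in the mouse, were also lower in value in the cervical libraries. The 6 genes of that list summed to 414, 866 and 771 CPM in cervical replicates 1, 2 and 3, against 807, 1035 and 1136 CPM in thoracic replicates 1, 2 and 3. Ntn1 and Spon1 made up most of these sums, with means of 345 and 310 CPM in the cervical and 458 and 476 CPM in the thoracic libraries. Cervical replicate 1 was the lowest library for the list as it was for Efnb3. All 6 had a log2 fold change below 0, with a median of -1.0, and 0 were called by edgeR, DESeq2 or limma-voom (3, 1 and 5 at an unadjusted p below 0.05), while 4 were called higher in thoracic libraries with the block. Shh stood at 17.2 ± 8.24 CPM in the cervical and 34.1 ± 6.44 CPM in the thoracic libraries (SD, n = 3 each, edgeR adjusted p = 0.285, and 0.00649 with the block). Foxa2, its upstream transcription factor, stood at 4.28 ± 2.72 and 9.59 ± 2.25 CPM in the cervical and thoracic libraries (edgeR adjusted p = 0.457, and 0.0354 with the block). Genes of mesenchyme had lower cervical values too, with 11 of 11 tested below a log2 fold change of 0 and a median of -0.59. Their summed level was 26.9, 81.3 and 233 CPM in cervical replicates 1, 2 and 3, against 145, 175 and 234 CPM in thoracic replicates 1, 2 and 3, so cervical replicate 1 was again the lowest library. None was called by edgeR, DESeq2 or limma-voom (0, 1 and 5 at an unadjusted p below 0.05), and with the block Col1a1 and Col3a1, genes of fibrillar collagens, were called higher in thoracic libraries (blocked adjusted p = 0.0122 and 0.0331). The part of floor plate or mesenchyme in the level of Efnb3 was not tested.

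Efnb1, the X-linked ligand, which neural progenitors express, lies on chromosome X from 98179736 to 98192597 (mm39, plus strand). It stood at 45.4, 45.3 and 46.0 CPM in cervical replicates 1, 2 and 3, against 49.8, 48.4 and 46.7 CPM in thoracic replicates 1, 2 and 3. It was the only member whose regions did not overlap, 1 of 8, where 13.7% of all genes tested did not. Means were 45.6 ± 0.381 CPM in the cervical and 48.3 ± 1.56 CPM in the thoracic libraries (SD, n = 3 each), and the log2 fold change was -0.084 (SE 0.069, 95% interval -0.24 to 0.068, edgeR adjusted p = 0.842). The cervical values varied by 0.837% (coefficient of variation), less than the 2.59% that read counting alone gives at this depth. The summed level of 15 neural progenitor genes was 1607 ± 177 CPM in the cervical and 1871 ± 222 CPM in the thoracic libraries. By library it was 1480, 1810 and 1532 CPM in cervical replicates 1, 2 and 3, against 1712, 2124 and 1777 CPM in thoracic replicates 1, 2 and 3. Thoracic replicate 1 had the highest Efnb1 level but the lowest thoracic sum. Cervical replicate 2 had the lowest Efnb1 level but the highest cervical sum. The median log2 fold change of the 15 genes was -0.198, with 13 below 0 and 2 above, among the latter Pax6 at 0.28 (edgeR adjusted p = 0.694). None of the 15 was called by edgeR or limma-voom, 3 were called by DESeq2 (5 had an unadjusted p below 0.05 in edgeR, 5 in limma-voom and 7 in DESeq2), and 3 were called higher in thoracic libraries with the block, among them Nes (209 ± 28.1 against 287 ± 34.3 CPM, edgeR adjusted p = 0.126, blocked 0.000903) and Vim (307 ± 35.3 against 429 ± 56.1 CPM, edgeR adjusted p = 0.0859, blocked 0.00073). The part of progenitors in the level of Efnb1 was not tested.

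Efnb2, the ligand that EphB1-bearing axons avoid in the limb, lies on chromosome 8 from 8667434 to 8711242 (mm39, minus strand). It stood at 261, 210.5 and 202 CPM in cervical replicates 1, 2 and 3, against 229, 209 and 231 CPM in thoracic replicates 1, 2 and 3. Cervical replicate 1 was the highest library and cervical replicate 3 the lowest, so that the spread lay within the cervical region. Means were 225 ± 31.9 CPM in the cervical and 223 ± 12.1 CPM in the thoracic libraries (SD, n = 3 each), with a log2 fold change of 0.0082 (SE 0.091, 95% interval -0.19 to 0.21, edgeR adjusted p = 0.994). Without cervical replicate 1 the log2 fold change was -0.11 (edgeR adjusted p = 0.651). The same library had the highest summed level of motor neuron genes, at 1142 CPM, against 647 and 809 CPM in cervical replicates 2 and 3 and 1099, 805 and 1024 CPM in thoracic replicates 1, 2 and 3. The part of these cells in the level of Efnb2 was not tested.

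**Figure D2:**
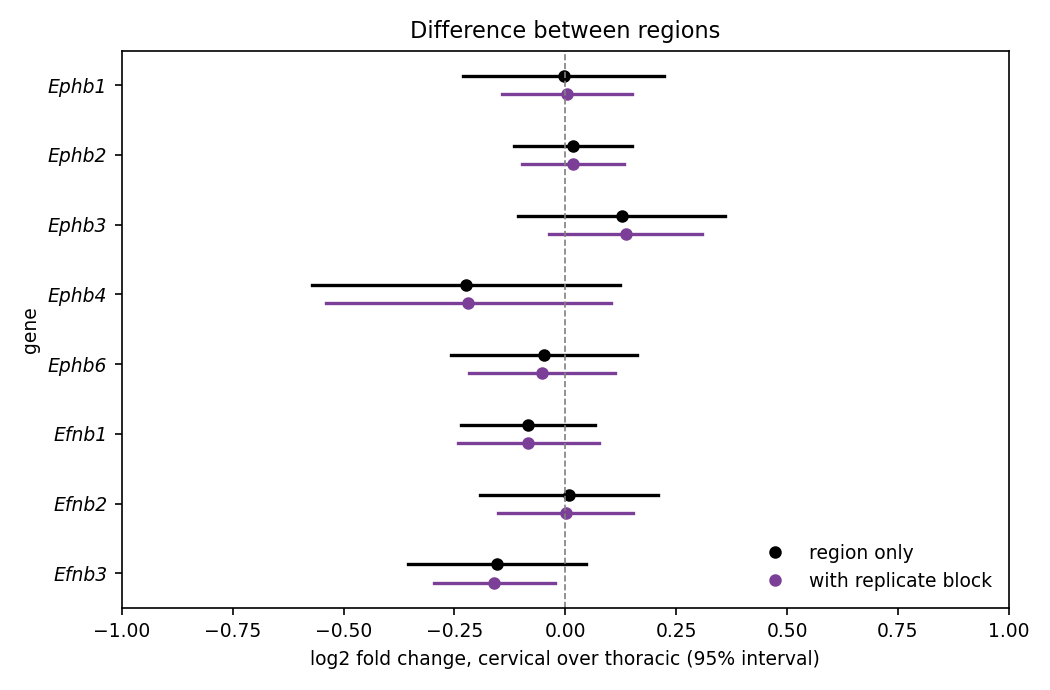
Log2 fold change of each gene, cervical over thoracic (x axis), with its 95% interval, from the fit with region only (black) and from the fit with the replicate number as a block (purple). Every interval of the fit with region only spans 0, and with the block the interval of Efnb3, from -0.297 to -0.024, does not, although its adjusted p was 0.339.

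Within same-numbered library pairs, 3 of the 8 genes kept 1 direction in all 3 pairs (Ephb3 higher in cervical, Efnb1 and Efnb3 lower), where 31.4% of all genes tested did. The coefficient of variation between libraries was above that from counting for each gene in the thoracic region, and for each but Efnb1 in the cervical region. With 3 libraries per region it is imprecise. The excess was small for Efnb1 in the thoracic region (3.23% against 2.35%) and Ephb4 in the cervical region (9.13% against 6.24%), and was not tested. In thoracic libraries the coefficient of variation was 15.6% for Ephb1, 15.9% for Ephb3 and 17.1% for Ephb4, against 1.5%, 2.1% and 5.42% from counting. Ephb2 and Efnb1 varied least there, by 4.34% and 3.23%. Counting error here takes each read as a separate molecule, and the labels mention no molecular identifiers.

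To compare levels between genes, counts were divided by exonic length and scaled to TPM over all genes of the table. The family fell into 4 steps that did not overlap in any library. Efnb3 (154.5 TPM, mean of 6 libraries), Ephb2 (142 TPM) and Efnb2 (133 TPM) led, with overlapping ranges of 125 to 175, 137 to 147 and 117 to 156 TPM. Efnb3 was above Ephb2 in 5 of 6 libraries, and Ephb2 above Efnb2 in 4 of 6. Next came Ephb1 (71.2 TPM), Ephb6 (55.6 TPM) and Efnb1 (55.4 TPM), of which Ephb1 was above Ephb6 in all 6 libraries although their ranges just touched, and Ephb6 above Efnb1 in 2 of 6. Ephb3 followed at 38.7 TPM and Ephb4 at 7.46 TPM, 5.19 times less. Ephb2 has the longest exonic length of the family, 12608 bases against 3183 for Efnb3, so the order by reads and by TPM differs.

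**Figure D3:**
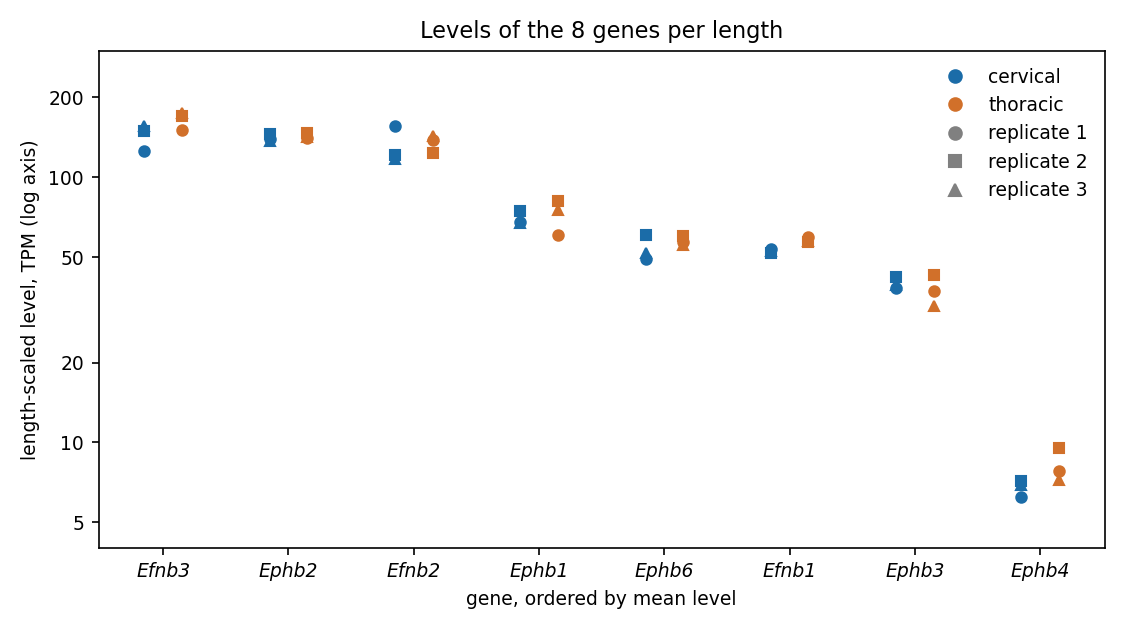
Length-scaled level (TPM, log axis) of the 8 genes, ordered by their mean, in cervical (left of each gene, blue) and thoracic (right, orange) libraries, with 1 symbol per replicate number. Efnb3, Ephb2 and Efnb2 lie between 117 and 175 TPM and Ephb4 between 6.2 and 9.52 TPM.

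Summed per length, the receptors reached 310 ± 16.7 TPM in the cervical and 319 ± 19.9 TPM in the thoracic libraries, and the ligands 328 ± 6.54 and 359 ± 15.6 TPM (SD, n = 3 each). The ligand sums did not overlap per length, at 322 to 335 TPM in the cervical and 348 to 377 TPM in the thoracic libraries. As TMM-scaled CPM they did, at 373 to 404 CPM in the cervical and 391 to 409 CPM in the thoracic libraries, and the receptor sum turned direction, at 689 ± 38.4 CPM in the cervical and 681 ± 47.2 CPM in the thoracic libraries. The receptor sums overlapped on both scales. The ratio of receptor to ligand transcripts was 0.897, 1.02 and 0.924 in cervical replicates 1, 2 and 3, against 0.869, 0.974 and 0.833 in thoracic replicates 1, 2 and 3. The ranges of this ratio overlapped. Ephb2 made up 45.2 ± 1.14% of receptor TPM in the cervical and 45 ± 1.67% in thoracic libraries, and Ephb1 22.5 ± 0.245% and 22.6 ± 2.35%. Of ligand TPM, Efnb3 made up 43.8 ± 5.61% in cervical and 46.2 ± 2.54% in thoracic libraries. In cervical replicate 1 Efnb2 took the larger share, 46.5% against 37.4% for Efnb3, and in the other 5 libraries Efnb3 did.

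The motor neuron label was checked against marker genes. Mnx1, a motor neuron transcription factor, averaged 319 TPM over the 6 libraries and was the highest of the 12 motor neuron genes per length. Others were lower, with Prph at 148, Slc18a3 at 100, Cntn2 at 77.9, Isl1 at 64.9 and Lhx4 at 57.2 TPM. Ret stood at 42.0, Lhx3 at 38.6, Nrg1 at 32.1, Slc5a7 at 24.5 and Isl2 at 24.1 TPM. Chat, the enzyme that makes acetylcholine, stood at 23.8 TPM. The median log2 fold change of the 12 was -0.306, with 3 above 0 and 9 below. Of the 12, edgeR and limma-voom called 0 (2 at an unadjusted p below 0.05 in each), DESeq2 called 1, and 3 were called higher in thoracic libraries with the block (Isl1, Ret and Slc18a3). Pax2 averaged 367 TPM, above each of them, so the libraries also held other neural cells, and a level in them cannot be assigned to motor neurons. Thoracic replicate 1 was the deepest library, with 53186131 counts, and the other 5 held 32103071 to 33790634. Endothelial markers were scarce, with mean levels of 0.91 TPM for Pecam1, 1.4 TPM for Cdh5 and 1.92 TPM for Kdr, below the 7.46 TPM of Ephb4 and the 133 TPM of Efnb2. The 11 endothelial genes, none at 0 throughout, summed to 10.3 to 18.8 CPM in the cervical and 15.6 to 22.4 CPM in the thoracic libraries. Thoracic replicate 2, the highest library for Ephb4, had the lowest thoracic sum, and thoracic replicate 1 the highest. Of the 10 endothelial genes tested, 9 had a log2 fold change below 0, like Ephb4, and 0 were called by edgeR, DESeq2 or limma-voom (1 at an unadjusted p below 0.05 in each). The part of vessel cells in the level of Ephb4 was not tested.

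**Figure D4:**
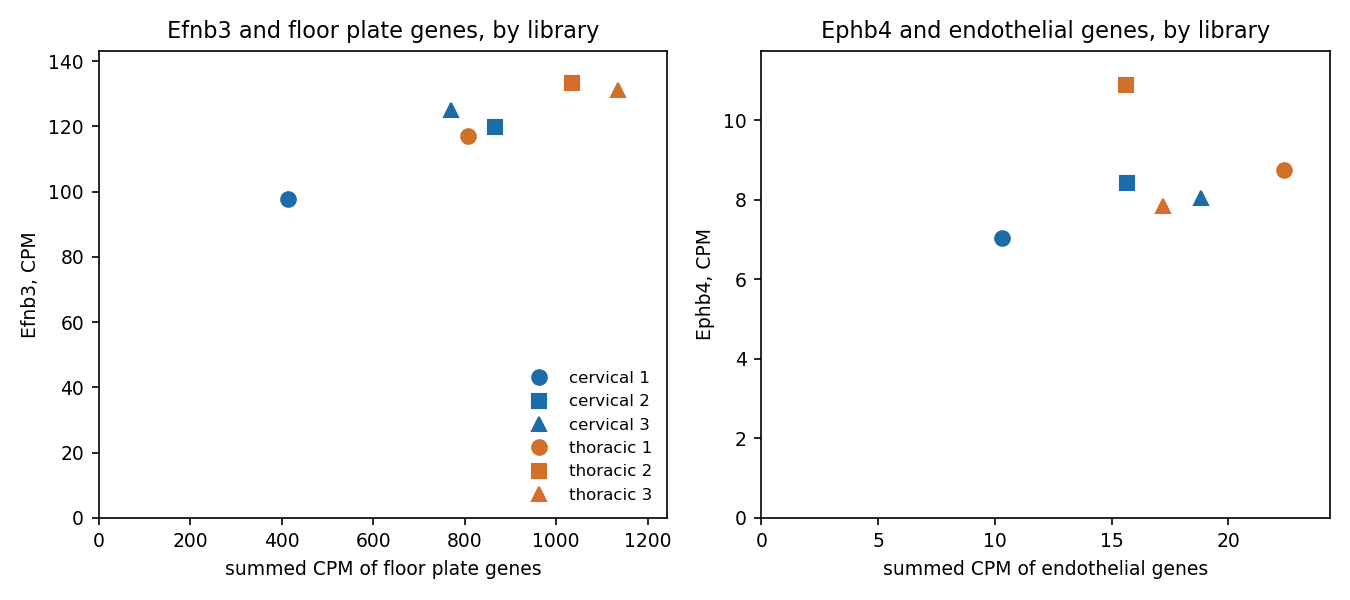
CPM of Efnb3 against the summed CPM of 6 floor plate genes (left panel) and CPM of Ephb4 against the summed CPM of 11 endothelial genes (right panel), with 1 point per library, cervical in blue and thoracic in orange. Cervical replicate 1 is the lowest library on both axes of both panels. In the right panel the highest Ephb4 level, 10.9 CPM in thoracic replicate 2, stands at an endothelial sum of 15.6 CPM. The highest endothelial sum, 22.4 CPM in thoracic replicate 1, stands at 8.75 CPM of Ephb4.

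Genes that act with EphB receptors and ephrin-B ligands were taken in 4 lists. Of 26 genes of EphB forward signalling (adaptors, kinases and exchange factors), edgeR called 0 (1 at an unadjusted p below 0.05) and limma-voom 0 (2), while DESeq2 called 1. The median log2 fold change was -0.021, beside 0.0083 over all genes. With the replicate block Grb10 was called. Grb10, an adaptor that binds activated receptor tyrosine kinases, stood at 207, 237 and 197 CPM in cervical replicates 1, 2 and 3, against 250.4, 324 and 302 CPM in thoracic replicates 1, 2 and 3, with no overlap (log2 fold change -0.45 with an SE of 0.098, edgeR adjusted p = 0.0965, and 0.00344 with the block). Kalrn, an exchange factor that acts downstream of EphB2 in rat dendritic spines, was the most abundant by reads and stood at 516 ± 17.4 CPM in the cervical and 510.02 ± 39.7 CPM in the thoracic libraries (SD, n = 3 each). Itsn1, another exchange factor of that pathway, had a log2 fold change of -0.11, Itsn2 -0.16 and the scaffold Dlg1 -0.13, with edgeR adjusted p of 0.66, 0.82 and 0.837. The regions did not overlap for Itsn1 either, and 13.7% of all genes tested had no overlap.

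Of 13 partners of the ephrin-B tail, 12 were tested, of which edgeR called 0 (2 at an unadjusted p below 0.05), limma-voom 0 (2) and DESeq2 1, with a median log2 fold change of -0.00093. Fyn, Src and Nck2 are on this list and on that of forward signalling. Stat3, a transcription factor, stood at 71.4, 58.1 and 65.2 CPM in cervical replicates 1, 2 and 3, against 82.5, 73.4 and 92.5 CPM in thoracic replicates 1, 2 and 3, with no overlap (log2 fold change -0.35 with an SE of 0.098, edgeR adjusted p = 0.220, and 0.026 with the block). The PDZ proteins Grip2 and Pick1 had log2 fold changes of -0.22 and 0.18, and the polarity protein gene Pard6b 0.17, with edgeR adjusted p of 0.476, 0.726 and 0.687. Grip2 and Pard6b also had no overlap of the regions. Fyn, the kinase that phosphorylates ephrin-B tails, stood at 179 ± 4.8 CPM in the cervical and 181 ± 1.66 CPM in the thoracic libraries (SD, n = 3 each).

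Of 15 genes that cleave, ubiquitinate or dephosphorylate receptor or ligand, 14 were tested, and edgeR, DESeq2 and limma-voom called 0, also at an unadjusted p below 0.05, with a median log2 fold change of -0.057. Ptpro, a phosphatase of Eph receptors known from chick, had a log2 fold change of -0.12, Ptprj -0.17, Cblb -0.13 and Adam8 0.16, with edgeR adjusted p of 0.67 to 0.852. Of these, Ptpro alone had no overlap of the regions. Cbl, a ubiquitin ligase and the most abundant of them by reads, stood at 233 ± 2.7 CPM in the cervical and 241 ± 15 CPM in the thoracic libraries (SD, n = 3 each). Of 9 further binding partners, which include Epha4, an A-class receptor that also binds ephrin-B2 and ephrin-B3, these tools again called 0, also at an unadjusted p below 0.05, with a median of -0.018. The 3 smallest p-values belonged to the A-class receptor gene Epha3, the adhesion gene L1cam and Ryk, a receptor without kinase activity, with log2 fold changes of -0.15, -0.072 and -0.062 and edgeR adjusted p of 0.828, 0.879 and 0.8995. Epha4 stood at 279 ± 21.9 CPM in the cervical and 292 ± 27.1 CPM in the thoracic libraries (SD, n = 3 each, edgeR adjusted p = 0.922). Reln, which encodes the secreted protein reelin, an EphB ligand, was the most abundant of them by reads, at 1384 ± 58.3 CPM in the cervical and 1306 ± 194 CPM in the thoracic libraries (SD, n = 3 each, edgeR adjusted p = 0.908).

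Likeness of pattern over the 6 libraries was measured as the root mean square difference of log2 CPM, centred on each gene's mean, among genes with a mean of at least 10 CPM. Of 10025 genes compared, the 3 nearest to Efnb3, the member with the smallest p, were ENSMUSG00000121179, Garem2 and Lman1, at 0.023, 0.03 and 0.038. For Ephb4, the member with the widest range, they were Sfrp1, Lxn and Nusap1 of 10026 compared, at 0.045, 0.062 and 0.065. Of the 7 other family members, none came nearer than Ephb6, at 0.127 from Efnb3 and 0.13 from Ephb4. The closest of so many genes over 6 libraries cannot be weighed against the closest of 7.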

How the data were processed

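The submitters' processing notes name mm39, FastQC 0.11.9, STAR 2.7.5b (an aligner) and featureCounts 2.0.1 (a read counter). The deposited values are raw counts of reads per gene, and gene lengths in bases come from the authors' same table, per the file headers. The libraries were stranded and amplified from little input RNA, per the labels' protocols. The sources used here give neither the annotation release nor the strand setting of the counting.

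The table was filtered with edgeR 4.0.16 (R 4.3.3, minimum count 10), which removed 0.117% of counts and left 21972 genes, scaled by TMM (factors 0.989 to 1.01) and fitted with region as the only term. Calls are at a Benjamini-Hochberg adjusted p below 0.05. The SE is the size of the log2 fold change over the square root of F, and 95% intervals, not adjusted for multiple tests, use the fit's degrees of freedom. Alternatives used DESeq2 1.42.0, limma 3.58.1, other scalings and filters, the replicate block and fits without each library. Deviations from region means correlated at 0.163, 0.16 and 0.195 between same-numbered libraries, and at -0.179 to 0.00834 between the others. Each same-numbered value was above the threshold of 0.1 chosen here for treating the numbers in the titles as pairs. These correlations are not independent, because the deviations in a region cancel out. The labels do not say what same-numbered libraries share, so the pairing is not established and the block serves as an alternative. Between pairs of libraries in a region, the squared differences were 10.1 to 16.2 times the variance from counting (chi-square per degree of freedom). Each library was counted as a sample.

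The members and lists were chosen with earlier results of these data known. Named genes are the 8 members, the called genes of each pathway list, up to 4 of its members with the smallest p and its most abundant member, and defining markers.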

Additional observations from a re-analysis of the deposited data

How the results depend on the processing

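Each of the 8 log2 fold changes was recomputed under 13 alternatives. None passed the threshold, and the lowest adjusted p was 0.339 (Efnb3 with the replicate block). Of the 104 values, 91 kept their direction, and the other 13 belonged to 4 genes close to 0. Ephb1 had 0.0044 with the replicate block and 0.020 with limma-voom, and Efnb2 had -0.0021 with limma-voom. Fits without 1 library gave -0.12 to 0.11 for Ephb1, -0.019 to 0.055 for Ephb2, -0.15 to 0.028 for Ephb6 and -0.11 to 0.079 for Efnb2. Such fits gave 0.020 to 0.25 for Ephb3, -0.32 to -0.083 for Ephb4, -0.11 to -0.064 for Efnb1 and -0.22 to -0.053 for Efnb3, with no change of sign. The number of genes called in the whole table was 119, with 432 under the replicate block, 747 with no low-count filter, 408 with DESeq2 and 9 to 159 without 1 library. The cause of these changes was not tested. Apart from the calls of Grb10 and Stat3 and of marker genes, the block changed no call given here. Depth limits Ephb4 most, at 227 to 469 reads per library.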
